A study of Mus musculus with 24 samples.

Results

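The comparison described here asked, by poly-A RNA sequencing, which transcripts of cultured mouse limb buds differed after 3 h with 1 µM tert-butylphenyl diphenyl phosphate (BPDP), the lowest dose and earliest time of the study. It rests on 8 of the 24 libraries of the series, grouped by their labels. They were 4 libraries labelled 1 µM BPDP at 3 h and 4 labelled DMSO at 3 h. The comparison itself was chosen with earlier results of these data known. Both groups were forelimb buds of CD1 embryos taken at gestation day 13, and all buds were kept in organ culture. The treated buds received 1 µM BPDP for 3 h, and the control buds received the solvent DMSO for the same 3 h. The other groups of the series, 10 µM BPDP at 3 h and 1 µM BPDP and DMSO at 24 h, enter only where the 1 µM, 3 h values are set beside them. Nothing in the labels says whether replicates came from separate litters or cultures, or how many buds made up a library, and p-values therefore cover only the variation among these samples, which may be technical. Limb buds are mixtures of cell types, and fewer cells of a type cannot be told apart from less RNA per cell.

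BPDP belongs to the organophosphate esters, which are added to products as plasticizers and to slow burning. Hedgehog signalling is named in the series title as the pathway of interest. In that pathway a hedgehog ligand binds the receptor patched, which frees the membrane protein smoothened, and the Gli transcription factors then raise the transcription of target genes such as Gli1, Ptch1 and Hhip. In the limb bud, Sonic hedgehog patterns the digits, and Indian hedgehog later paces the maturation of cartilage.

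Total counts were 15630217 to 20823058 in the 1 µM libraries and 17308913 to 19369801 in the control libraries. Levels are given as CPM, which are counts scaled to library size, with Yam1 left out of the totals. The transcript Yam1 took 5.356% of the counts of 1 µM replicate 3 and 4.461% of control replicate 4, against 0.0792% to 0.129% in the other 6 libraries. Xist, the RNA of the inactive X chromosome, stood at 118.5 to 384.7 CPM in the 1 µM libraries, at 324.8 and 252.2 CPM in control replicates 3 and 4, and at 0.41 and 0.378 CPM in control replicates 1 and 2. Ddx3y, a Y-linked gene, stood at 12.2 to 52.8 CPM in the 1 µM libraries and at 23.5 to 69.8 CPM in the controls. The tissue label fitted the markers: Tbx5, the forelimb factor, had 275.5 to 291.2 CPM in 1 µM libraries and 269.6 to 307.7 CPM in controls, and Prrx1, a limb mesenchyme gene, had 452.4 to 521.6 CPM in 1 µM libraries and 436.2 to 472.9 CPM in controls. The hindlimb gene Pitx1 was low, with 6.59 to 7.65 CPM in 1 µM libraries and 6.74 to 12.5 CPM in controls. Tbx4, another hindlimb gene, stood higher than Pitx1, at 15.8 to 21.2 CPM in 1 µM libraries and 17.9 to 21.9 CPM in controls. Hindlimb markers were thus below Tbx5 but not absent.

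After 3 h with 1 µM BPDP, Gli1 fell and Mbnl3 rose, and no other gene passed the threshold. Among 15445 genes tested, these 2 had an adjusted p under 0.05 (0.0129% of the genes; 0.00647% in each direction). The test was edgeR's quasi-likelihood test with the replicate number as a block and Benjamini-Hochberg adjustment over all genes tested. At an unadjusted p under 0.05, 1504 genes passed (9.74%), of which 837 were higher (5.42%) and 667 lower (4.32%), and 31 genes had an adjusted p under 0.1 (0.201%). The levels of the groups did not overlap for 466 genes (3.02%), with 267 higher (1.73%) and 199 lower (1.29%). Over all genes tested, the log2 fold change had a median of -0.0101 and an interquartile range from -0.11 to 0.08. The treated library was on the same side of its control at all 4 replicate numbers for 2742 genes (17.8%). With DESeq2 and the same block, 26 of the 8558 genes it kept were called (0.304%), 21 higher (0.245%) and 5 lower (0.0584%).

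**Figure D1:**
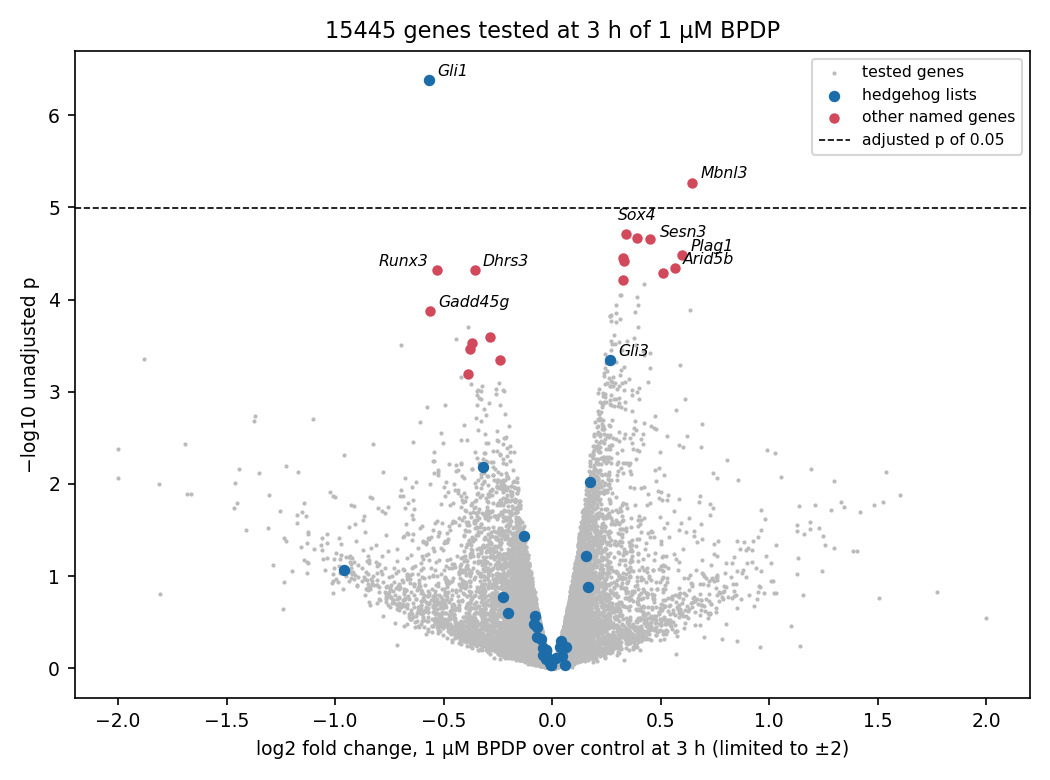
Log2 fold change of 1 µM BPDP over control at 3 h (x axis, limited to ±2) against -log10 of the unadjusted p (y axis) for each of the 15445 genes tested in 4 libraries per group. Gli1 and Mbnl3 lie above the dashed line that marks an adjusted p of 0.05, while Runx3 and Dhrs3 on the left and Sox4 and Plag1 on the right lie below it.

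Gli1 encodes the Gli family activator whose own transcription is driven by hedgehog signalling, and its transcript is the usual readout of the pathway. Gli1 (ENSMUSG00000025407, chromosome 10 from 127329889 to 127341589 on the minus strand of mm10) had 41.6, 51.7, 34.4 and 37.2 CPM in 1 µM replicates 1 to 4, against 65.7, 73.3, 54.4 and 49.6 CPM in control replicates 1 to 4. The treated library was the lower one at each of the 4 replicate numbers, by 0.66, 0.50, 0.66 and 0.42 on the log2 scale, while the group ranges overlapped through 1 µM replicate 2, which stood above control replicate 4. The means were 41.2 ± 7.62 CPM with 1 µM and 60.7 ± 10.7 CPM in control (SD, n = 4 each), and Gli1 fell by 0.57 on the log2 scale (SE 0.0744, adjusted p = 0.00645, edgeR quasi-likelihood test). Within replicates 1 and 2 the log2 fold change was -0.58, and within replicates 3 and 4 it was -0.54.

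Mbnl3 encodes a muscleblind-like RNA-binding protein that regulates alternative splicing. Mbnl3 (ENSMUSG00000036109, chromosome X from 51117269 to 51206532 on the minus strand of mm10) had 34.5, 23.0, 19.4 and 21.6 CPM in 1 µM replicates 1 to 4, against 20.7, 14.4, 13.7 and 13.4 CPM in control replicates 1 to 4. The treated library was the higher one at each of the 4 numbers, and the groups overlapped only through control replicate 1, which stood above 1 µM replicate 3. The means were 24.6 ± 6.74 CPM with 1 µM and 15.6 ± 3.43 CPM in control (SD, n = 4 each), and Mbnl3 rose by 0.64 on the log2 scale (SE 0.102, adjusted p = 0.0417, edgeR quasi-likelihood test). The difference was 0.70 among replicates 1 and 2, and among replicates 3 and 4 it was 0.59. The gene is X-linked, and with a term for the libraries low in Xist its log2 fold change was 0.58. Only control replicates 1 and 2 were low in Xist, so with the block this term leaves the treatment difference to replicates 3 and 4. The value of 0.58 is therefore not one adjusted for sex mix, and the part of sex mix was not tested.

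Both calls rest on the comparison within replicate numbers. Without the block 0 genes were called by edgeR (801, or 5.19%, at an unadjusted p under 0.05), and Gli1 and Mbnl3 both had an adjusted p of 0.928 at nearly the same log2 fold changes, -0.56 for Gli1 and 0.66 for Mbnl3. With the block, leaving out both libraries of number 2 or of number 3 left 0 genes called (951 and 1040 at an unadjusted p under 0.05), with adjusted p = 0.217 and 0.264 for Gli1 and 0.312 and 0.264 for Mbnl3. Leaving out number 1 left Gli1 called (adjusted p = 0.0479) and not Mbnl3 (0.115), and leaving out number 4 raised the number of called genes to 413 (2.66%), with Gli1 and Mbnl3 among them. With a term for the libraries low in Xist, which leaves the treatment difference to numbers 3 and 4, the adjusted p was 0.0792 for Gli1 and 0.243 for Mbnl3. In the authors' deposited table, which has no stated block, Gli1 had a log2 fold change of -0.35 with p = 7.19e-05 and an adjusted p of 0.41385, the lowest adjusted p was 0.12494 for Ppm1l, and 0 genes fell under 0.05 (825 of 23834 at an unadjusted p under 0.05). The largest log2 fold change in size over all genes of that table was 0.35. Its fold changes thus span a narrower range than those given here, and the 2 sets are not on the same scale.

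**Figure D2:**
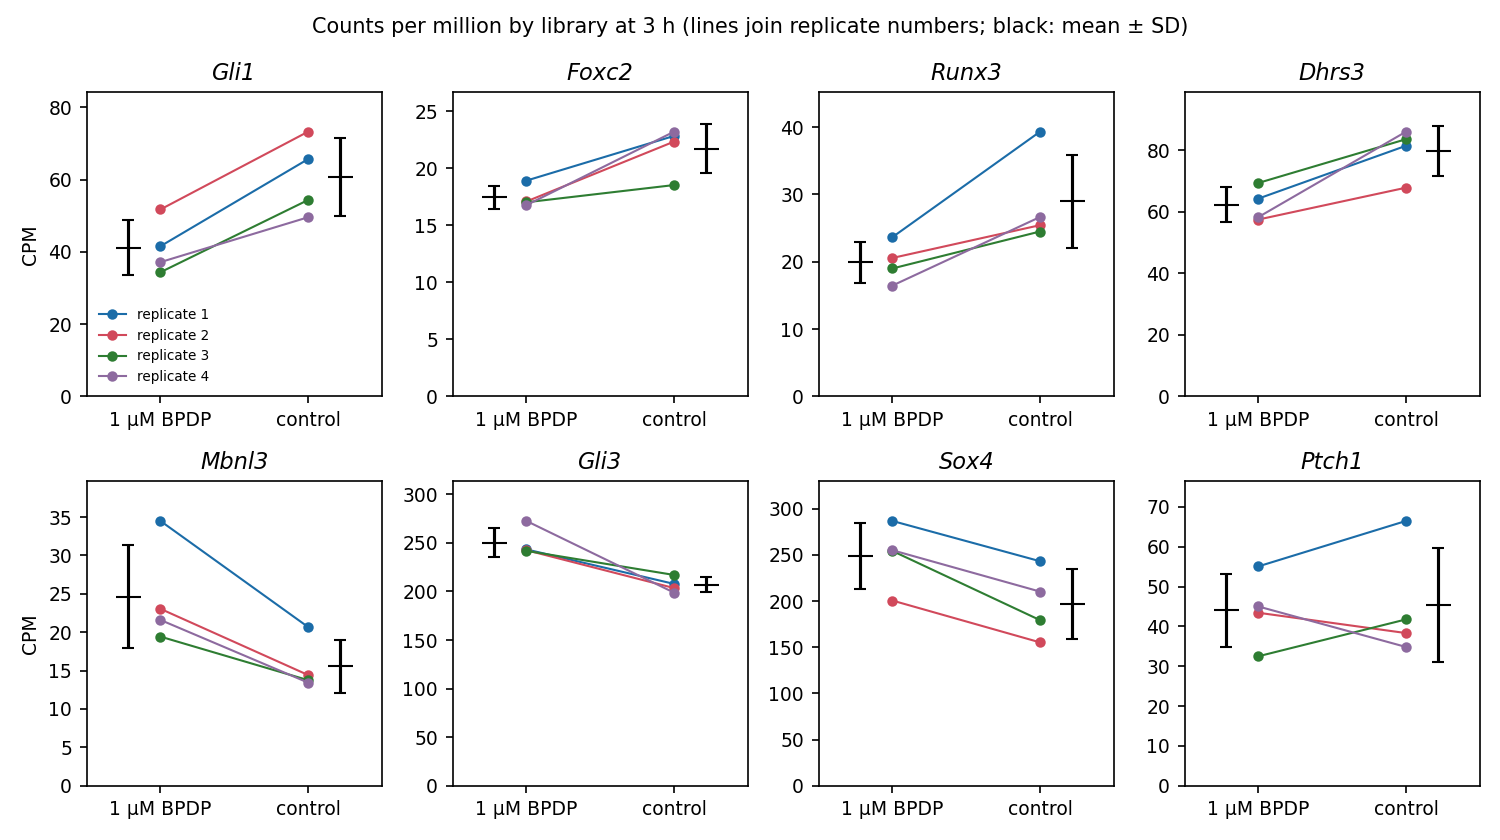
CPM (y axes, starting at 0) of 8 genes in each library of 1 µM BPDP (left of each panel) and control (right) at 3 h, with lines joining libraries of the same replicate number and black marks for mean ± SD (n = 4). All 4 lines climb toward control for Gli1, Foxc2, Runx3 and Dhrs3 and descend for Mbnl3, Gli3 and Sox4, whereas those of Ptch1 cross.

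Of the 11 listed targets of hedgehog signalling, Gli1 included, 9 had a negative log2 fold change and 2 a positive one. Over all genes tested, 46.9% were positive. Of the 11 target genes listed, all tested, 1 was called (Gli1, lower), and 2 were lower and 0 higher at an unadjusted p under 0.05, where 4.32% of all genes were lower and 5.42% higher. Their median log2 fold change was -0.0442, against -0.0101 over all genes. Foxc2, a forkhead factor of the mesenchyme, had 18.9, 17.1, 17.0 and 16.8 CPM with 1 µM, against 22.9, 22.4, 18.5 and 23.2 CPM in control, a log2 fold change of -0.32 (SE 0.104, adjusted p = 0.307 in edgeR). The groups overlapped for Foxc2 only through control replicate 3.

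The groups were interleaved for Ptch1, the main patched receptor and itself a target. Ptch1 had 55.1, 43.4, 32.5 and 45.0 CPM in 1 µM replicates 1 to 4, against 66.5, 38.3, 41.8 and 34.8 CPM in control replicates 1 to 4, higher at 2 numbers and lower at 2. Its log2 fold change was -0.03 (SE 0.11, adjusted p = 0.964 in edgeR). Hhip, a secreted hedgehog antagonist that is also induced by the pathway, had 14.1 to 17.7 CPM with 1 µM and 12.9 to 18.6 CPM in control, a log2 fold change of 0.06 (SE 0.116). The remaining targets were Foxf1, Foxf2, Osr2, Pthlh, Bmp4, Grem1 and Sall1, with log2 fold changes of -0.96 to 0.16 and 0 of them past an unadjusted p of 0.05. Foxf1 gave the lowest of these values at a level of 0.13 to 0.89 CPM in 1 µM libraries and 0.79 to 1.08 CPM in controls.

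Ligands, receptors and transducers of the pathway had log2 fold changes between -0.20 and 0.27. Of 22 listed, 21 were tested, 0 were called by edgeR or DESeq2, and 2 were higher and 1 lower at an unadjusted p under 0.05 (5.42% higher and 4.32% lower over all genes), with a median log2 fold change of -0.0147. Sonic hedgehog (Shh) did not pass the filter on low counts. Indian hedgehog (Ihh) had 24.0 to 28.7 CPM with 1 µM and 24.9 to 31.1 CPM in control, a log2 fold change of -0.07 (SE 0.0936). Smoothened (Smo) had 264.8 to 278.6 CPM with 1 µM and 250.9 to 282.3 CPM in control (log2 fold change 0.04), and the Gli inhibitor Sufu differed by -0.03.

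Of the other Gli factors, Gli3 lay above control in every library and Gli2 did not separate from it. Gli3, which in the absence of ligand is processed to a repressor, had 243.3, 242.5, 241.8 and 272.6 CPM in 1 µM replicates 1 to 4, against 207.8, 203.5, 217.0 and 198.8 CPM in control replicates 1 to 4. Its groups did not overlap, with a log2 fold change of 0.27 (SE 0.0627), and its adjusted p was 0.128 in edgeR and 0.0663 in DESeq2. Gli2, the main activator when ligand is present, differed by -0.01 (SE 0.0594, adjusted p = 0.968 in edgeR). Per length, in RPKM (CPM per kilobase of gene length), the mean level of Gli1 was 11.2 with 1 µM and 16.6 in control, that of Gli2 was 17.6 with 1 µM and 17.7 in control, and that of Gli3 was 30.6 with 1 µM and 25.3 in control. Cdon, a co-receptor for the ligand, differed by 0.18 (adjusted p = 0.338 in edgeR). Adrbk1 (Grk2), a kinase that phosphorylates smoothened, differed by -0.13 (adjusted p = 0.482 in edgeR) with groups that did not overlap.

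**Figure D3:**
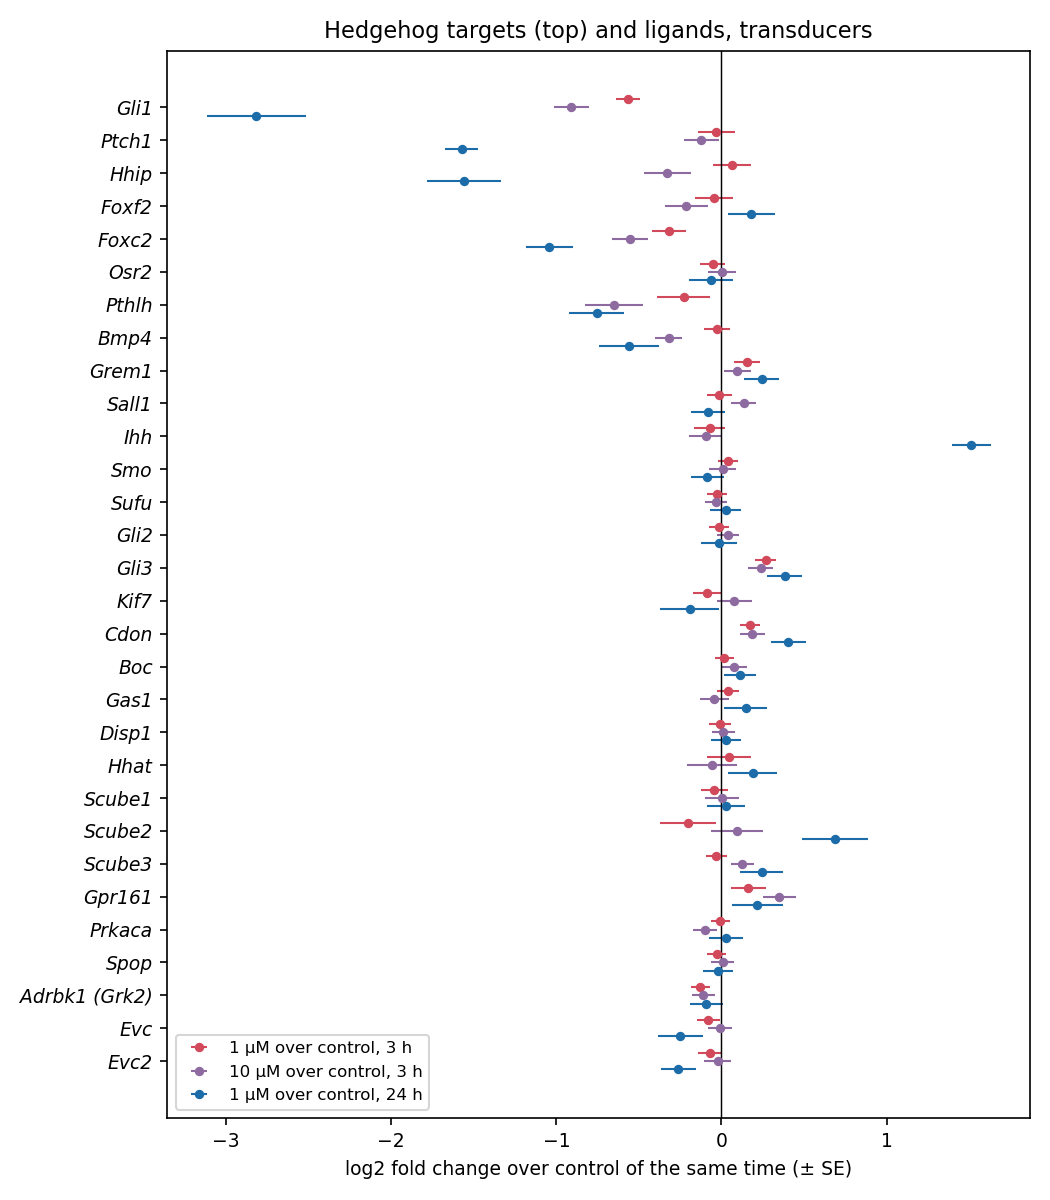
Log2 fold change over the control of the same time (x axis, ± SE) of the tested hedgehog genes, with 1 µM BPDP at 3 h in red, 10 µM at 3 h in purple and 1 µM at 24 h in blue (4 libraries per group). Foxf1 and Dhh, below 2 CPM, are not drawn. In red, Gli1 at -0.57 and Foxc2 at -0.32 stand to the left of 0 while Ptch1 and Hhip lie within 0.1 of 0, and in blue Gli1, Ptch1 and Hhip all lie below -1.5.

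Genes other than Gli1 and Mbnl3 with the lowest p-values in each direction are given as values, since none passed the threshold. Sox4, a SoxC transcription factor of embryonic progenitors, had 286.7, 200.5, 254.2 and 255.0 CPM in 1 µM replicates 1 to 4, against 243.1, 155.2, 179.3 and 210.2 CPM in control replicates 1 to 4. The log2 fold change of Sox4 was 0.34 (SE 0.0601, adjusted p = 0.0662 in edgeR). Plag1, a zinc finger factor that promotes growth, had 27.6, 24.98, 20.4 and 28.3 CPM with 1 µM, against 21.6, 16.5, 14.1 and 14.7 CPM in control, a log2 fold change of 0.60 (SE 0.11, adjusted p = 0.0662 in edgeR). For both genes the group ranges overlapped. The treated library was higher at all 4 numbers, which was a condition for naming these genes. Of all genes tested, 17.8% had 1 direction at all 4 numbers. Ppm1l, a protein phosphatase, had 83.2 to 93.0 CPM with 1 µM and 67.3 to 70.3 CPM in control, and Trp53inp1, a p53 target that takes part in autophagy, had 84.1 to 106.2 CPM with 1 µM and 70.2 to 80.9 CPM in control. These 2 were the ones among the 10 higher genes whose groups did not overlap, at log2 fold changes of 0.33 for both. The other higher genes were Sesn3 (0.45), a stress-responsive inhibitor of mTORC1, Arid5b (0.56), a chromatin factor, Foxn3 (0.51), a forkhead repressor, Lrrc58 (0.39) and the X-linked translation factor gene Eif2s3x (0.32), whose reads may be shared with its Y-linked copy. The adjusted p in edgeR was 0.0662 for all of these except Trp53inp1, at 0.0724, and DESeq2 called all 9 of them together with Mbnl3. For Eif2s3x the log2 ratios of treated over control were 0.42, 0.41, 0.33 and 0.16 at numbers 1 to 4. In this comparison only control replicates 1 and 2 were low in Xist. The part of sex mix in the value of Eif2s3x was not tested further.

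Among the lower genes, Runx3, a Runt factor of cartilage maturation, had 23.7, 20.6, 19.0 and 16.5 CPM in 1 µM replicates 1 to 4, against 39.3, 25.4, 24.5 and 26.6 CPM in control replicates 1 to 4. The groups did not overlap, and the log2 fold change of Runx3 was -0.53 (SE 0.101, adjusted p = 0.0662 in edgeR and 0.0217 in DESeq2). Dhrs3, which reduces retinaldehyde and is induced by retinoic acid, had 64.3, 57.5, 69.4 and 58.3 CPM with 1 µM, against 81.5, 67.9, 83.6 and 86.1 CPM in control. The ranges of Dhrs3 overlapped by a small margin, between 1 µM replicate 3 and control replicate 2, and its log2 fold change was -0.36 (SE 0.068, adjusted p = 0.0662 in edgeR and 0.0293 in DESeq2). Gadd45g, a growth arrest gene, had 11.3, 15.9, 9.97 and 11.5 CPM with 1 µM, against 16.4, 23.6, 16.4 and 15.1 CPM in control, a log2 fold change of -0.56 (adjusted p = 0.0905 in edgeR). Hic1, a transcriptional repressor, had 160.2 to 172.2 CPM with 1 µM and 187.2 to 203.7 CPM in control, and Thap3 had 24.5 to 30.1 CPM with 1 µM and 31.8 to 38.5 CPM in control. Neither gene's groups overlapped, and the log2 fold changes were -0.24 for Hic1 and -0.37 for Thap3. Rsrp1 (-0.29), Rabggtb (-0.38) and Lmbr1l (-0.39) were the last of the lower genes, with ranges that overlapped and adjusted p-values of 0.113 to 0.146.

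Gene length and base composition moved with the differences. Across the 15445 genes, the log2 fold change had a Spearman correlation of 0.256 with gene length, and across the 15366 genes with a GC value it had one of -0.306 with GC content, where genes share libraries and are not replicates. The median log2 fold change was -0.056 in the shortest quintile of genes and 0.06 in the longest, and 0.07 in the quintile lowest in GC and -0.07 in the quintile highest in GC. Replicate 4 carried the steepest length trend, with medians of -0.22 in the shortest and 0.16 in the longest quintile. The 10 higher genes named above had a median length of 4712 bases and a median GC content of 44.55%, against 3062 bases and 49.96% over all tested genes, and the 9 lower genes had 2548 bases and 55.95%. With both trends removed from each library, a correction chosen after seeing the data, 8 genes were called (0.0521%). They were Gli1 (-0.51, adjusted p = 0.00149 in edgeR) and Mbnl3 (0.56, 0.0294), together with Sox4, Sesn3, Arid5b and Foxn3, all higher, and the imprinted long noncoding RNAs Meg3 and Rian, both lower. In the same fit the log2 fold change of Runx3 was -0.49 and that of Gli3 0.17, while Cdon was at 0.09, Adrbk1 at -0.08, Lrrc58 at 0.26 and Trp53inp1 at 0.21. The part of the trends in the uncorrected values of single genes was not tested further.

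**Figure D4:**
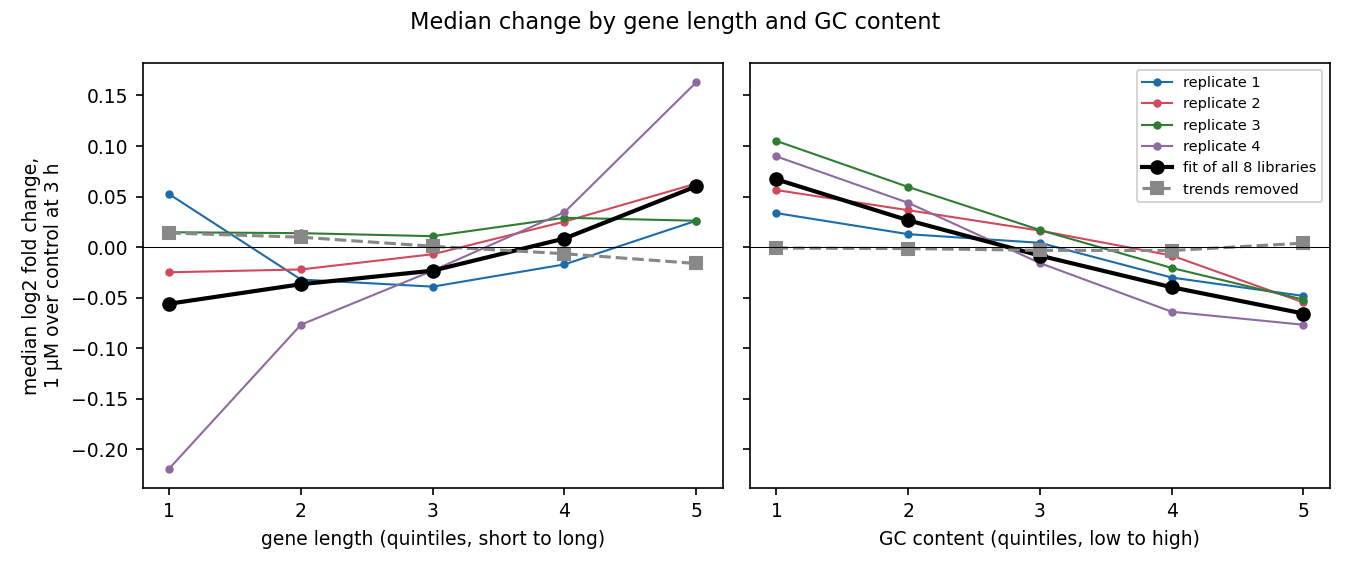
Median log2 fold change of 1 µM BPDP over control at 3 h (y axis) in quintiles of the tested genes by length (left) and GC content (right), for each replicate pair, for the fit of all 8 libraries (black) and with both trends removed (grey, dashed). The black line climbs from -0.056 to 0.06 with length and descends from 0.07 to -0.07 with GC content, and the grey line stays within 0.02 of 0.

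Groups of genes outside the hedgehog pathway are described by counts at an unadjusted p under 0.05, where 9.74% of all genes stood, and by medians, against -0.0101 over all genes. The lists were drawn up with earlier results of these data known. In the cholesterol biosynthesis list, 8 of 25 tested genes were higher and 0 lower, and the median log2 fold change was 0.10, or 0.14 with length and GC trends removed. Hmgcs1, which makes the precursor of mevalonate, had 138.8 to 185.8 CPM with 1 µM and 122.2 to 147.9 CPM in control (log2 fold change 0.25, adjusted p = 0.128 in edgeR). Cyp51, the lanosterol demethylase, had 85.7 to 96.6 CPM with 1 µM and 72.4 to 79.5 CPM in control, without overlap (0.26, adjusted p = 0.129). At 10 µM and 3 h, in a comparison with the same controls, the log2 fold changes were -0.09 for Hmgcs1 and 0.01 for Cyp51.

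The cartilage list had 9 positive and 13 negative log2 fold changes, and the hypertrophic chondrocyte list had 3 and 9. Of all genes tested, 46.9% were positive. In the hypertrophic chondrocyte list, which holds Runx3, 1 of 12 tested genes was higher and 5 were lower at an unadjusted p under 0.05, with a median of -0.19 (-0.17 with trends removed). Mef2c, a MADS-box factor of the same list, was its higher gene, with 121.2 ± 9.03 CPM with 1 µM and 103.2 ± 18.4 CPM in control (log2 fold change 0.24, or 0.12 with trends removed, adjusted p = 0.164 in edgeR). In the wider cartilage list, 3 of 22 genes were higher and 7 lower, with a median of -0.12 (-0.09 with trends removed). Matn1, a matrix protein, had 136.7, 135.0, 82.1 and 81.7 CPM with 1 µM, against 161.7, 148.7, 86.6 and 99.95 CPM in control (log2 fold change -0.19, or -0.11 with trends removed, adjusted p = 0.252 in edgeR). Libraries 1 and 2 of both groups were high in Matn1 and libraries 3 and 4 low, so the difference between pairs of numbers was larger than that between treatments. Trps1, a repressor of the chondrocyte line, had 187.1 ± 15.9 CPM with 1 µM and 160.6 ± 9.57 CPM in control (0.21, adjusted p = 0.156), and with trends removed its log2 fold change was 0.06. The summed level of the 22 cartilage markers was 6089 to 7465 CPM in 1 µM libraries and 6241 to 8315 CPM in controls.

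The retinoic acid list, which holds Dhrs3, had 1 of 17 tested genes higher and 5 lower, with a median of -0.10 (-0.04 with trends removed). Cyp26b1, which degrades retinoic acid in the limb bud, had 157.4, 141.5, 158.7 and 174.5 CPM with 1 µM, against 180.8, 151.6, 183.5 and 197.0 CPM in control (log2 fold change -0.18, adjusted p = 0.264 in edgeR), lower at all 4 numbers with overlapping ranges. Among immediate early genes, which respond to growth factors and handling within minutes to hours, 2 of 34 were higher and 8 lower, with a median of -0.10 (-0.03 with trends removed). Ctgf, a matricellular growth factor gene on that list, had 27.4 ± 12.1 CPM with 1 µM and 33.7 ± 13.7 CPM in control (-0.31, adjusted p = 0.266). The hypoxia and glycolysis list had 0 of 28 genes higher and 4 lower, with a median of -0.06. Its gene of lowest p was Vegfa, the endothelial growth factor, at 55.7 ± 13.9 CPM with 1 µM and 67.8 ± 10.97 CPM in control (-0.30, adjusted p = 0.188).

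Stress programmes were described in the same way. The heat shock list had 0 of 12 genes past an unadjusted p of 0.05, the NRF2 and oxidative stress list had 1 of 19, the unfolded protein response list had 2 higher and 1 lower of 15, and the integrated stress response list had 0 higher and 3 lower of 20. In the last of these, Ddit4, an inhibitor of mTORC1, had 173.1 to 234.2 CPM with 1 µM and 205.8 to 256.0 CPM in control (log2 fold change -0.23, or -0.13 with trends removed, adjusted p = 0.155 in edgeR). Of 7 tested genes of the aryl hydrocarbon receptor list, the receptor gene Ahr itself was the 1 past an unadjusted p of 0.05, at 15.97 ± 2.12 CPM with 1 µM and 12.7 ± 1.76 CPM in control (0.32). Cell division lists were near the median of all genes, at 0.00798 for 22 G2/M genes and -0.0173 for 17 G1/S genes. edgeR called 0 genes in any list outside the hedgehog targets. DESeq2 called 4 list members there, which were Arid5b (immediate early), Dhrs3 (retinoic acid), Trp53inp1 (p53) and Runx3 (hypertrophic chondrocyte). All 4 were already named above for their low p in edgeR. Of all genes it kept, DESeq2 called 26 of 8558 (0.304%), and the lists were not compared with that share.

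Markers of other cell types were also compared. The 11 tested erythroid genes had a median log2 fold change of 0.21, with 10 positive and 1 past an unadjusted p of 0.05. The summed level of the erythroid list was 4161 to 6893 CPM in 1 µM libraries and 2993 to 7208 CPM in controls. Alas2, the erythroid enzyme of heme synthesis, had 45.2, 23.0, 32.3 and 30.5 CPM with 1 µM, against 25.01, 14.3, 23.3 and 32.4 CPM in control, higher at 3 of 4 numbers (0.47, adjusted p = 0.217 in edgeR). Summed macrophage markers were 157.6 to 196.4 CPM with 1 µM and 134.8 to 186.9 CPM in control, and summed endothelial markers were 567.0 to 593.1 CPM with 1 µM and 558.2 to 649.6 CPM in control. No marker was at 0 in all 8 libraries, and the part of cell mixture in the values of single genes was not tested.

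**Figure D5:**
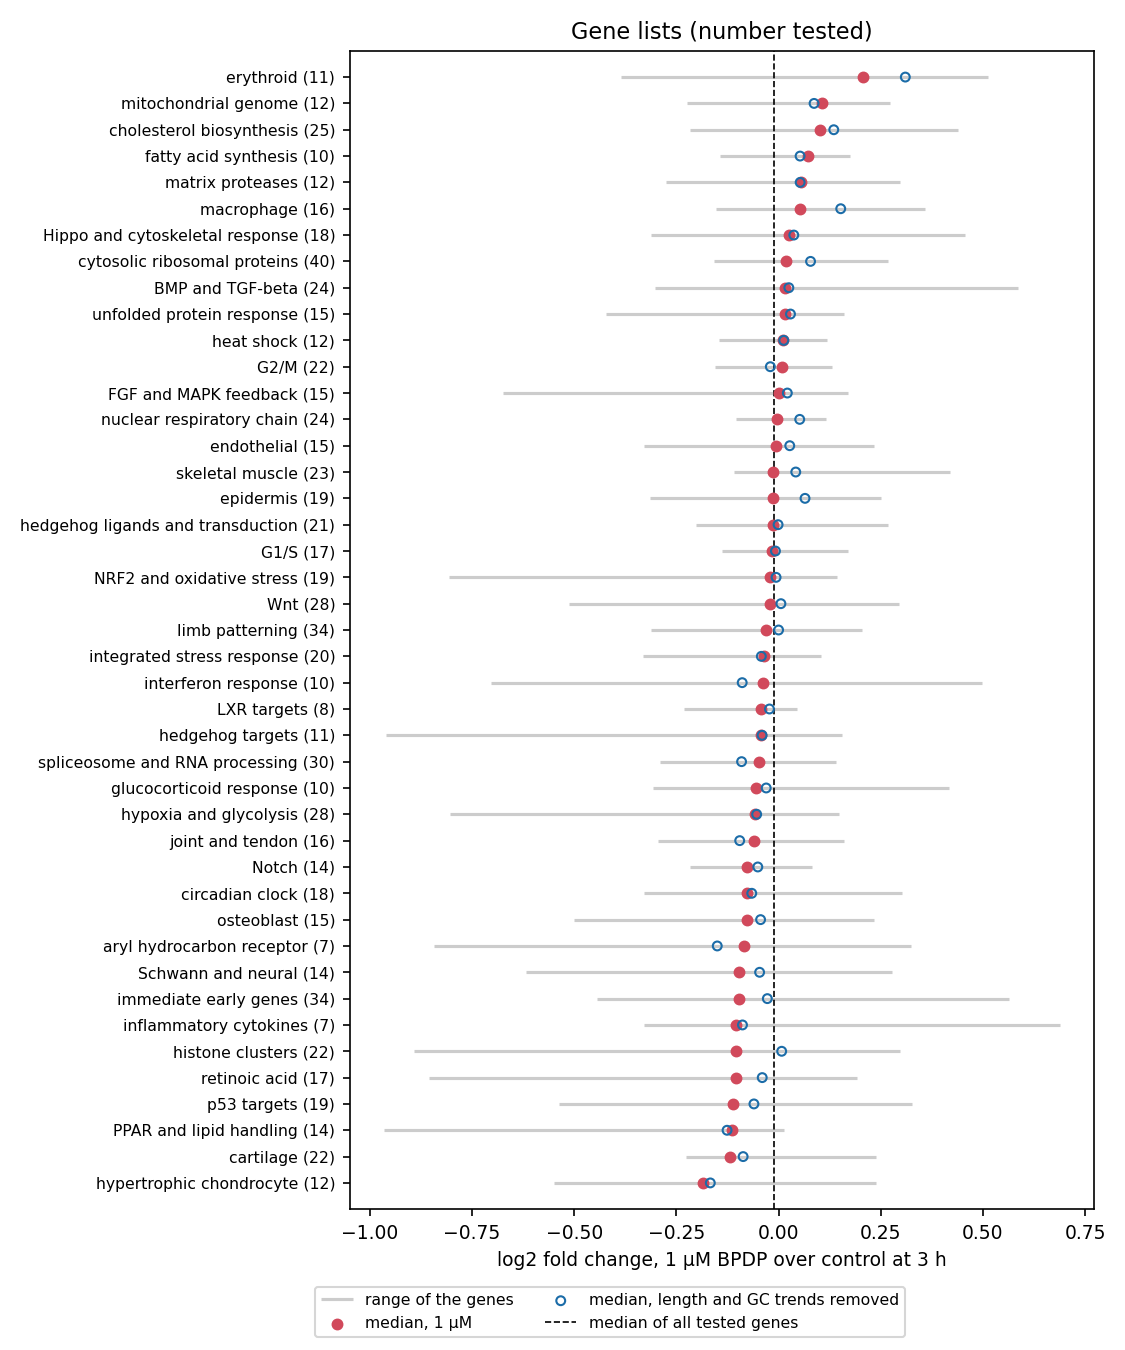
Log2 fold change of 1 µM BPDP over control at 3 h (x axis) for gene lists with at least 5 tested genes, other than the sex-linked one (y axis, number tested in parentheses), with grey lines for the range of the genes, red points for the median and open blue circles for the median with length and GC trends removed. The dashed line marks the median of all genes, -0.0101, and most medians lie within 0.1 of it, with the hypertrophic chondrocyte list at -0.19 and the erythroid list at 0.21 at the ends of those drawn. The sex-linked list, which is not drawn, had a median of -0.33 over 5 genes.

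The dose response was tested directly between the treated groups, without the controls. With 10 µM against 1 µM at 3 h, 2 of 15431 genes were called by edgeR with the block (0.013%), both lower, and 1910 passed an unadjusted p under 0.05 (12.4%). Dhrs3 had 34.0, 37.3, 37.3 and 41.5 CPM in 10 µM replicates 1 to 4, against 64.3, 57.5, 69.4 and 58.3 CPM in 1 µM replicates 1 to 4, and it fell by 0.72 on the log2 scale (SE 0.088, adjusted p = 0.0385). Dhrs3 thus stood at 79.8 ± 8.15, 62.4 ± 5.58 and 37.5 ± 3.07 CPM at 0, 1 and 10 µM (SD, n = 4 each), and the 10 µM libraries overlapped neither of the lower doses. Cyp1b1, a cytochrome P450 that oxidizes retinoids and steroids, had 9.84, 8.83, 16.1 and 13.6 CPM in 10 µM replicates 1 to 4, against 28.1, 27.4, 31.5 and 32.5 CPM in 1 µM replicates 1 to 4. It fell by 1.32 (SE 0.125, adjusted p = 0.00567), whereas 1 µM and control did not separate, at 29.8 ± 2.52 CPM with 1 µM and 31.9 ± 6.53 CPM in control (log2 fold change -0.09, adjusted p = 0.868). The number of genes called between the doses was 16 without replicate number 1 and 1 without number 2, 3 or 4.

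For Gli1 the step between doses was not resolved. Gli1 averaged 60.7, 41.2 and 32.7 CPM at 0, 1 and 10 µM, and the 10 µM libraries, at 44.2, 39.7, 22.3 and 24.8 CPM, overlapped the 1 µM libraries. The log2 fold change of 10 µM over 1 µM was -0.35 for Gli1 (adjusted p = 0.372 in edgeR). Against the same 4 controls, 10 µM gave 336 called genes of 15538 (2.16%), with Gli1 at -0.91 (adjusted p = 0.0071), Runx3 at -0.90 (0.00977), Mbnl3 at 0.43 (0.0689) and Gli3 at 0.24 (0.118). The 1 µM and 10 µM comparisons share their controls, so their values are not independent of each other.

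The hedgehog targets Ptch1 and Hhip were called lower with 1 µM at 24 h, and neither was called at 3 h. In a test of the 24 h effect minus the 3 h effect, which uses other libraries at each time, 9 of 16317 genes were called by edgeR (0.0552%), 4 higher (0.0245%) and 5 lower (0.0306%), and 678 passed an unadjusted p under 0.05 (4.16%). Ptch1 had 36.0, 26.6, 22.9 and 25.3 CPM in 1 µM libraries at 24 h, against 98.1, 85.6, 68.1 and 75.5 CPM in 24 h controls, without overlap, and its effect at 24 h was 1.54 below that at 3 h on the log2 scale (difference -1.54, SE 0.157, adjusted p = 0.000507). Hhip (-1.63, adjusted p = 0.0289) shifted in the same direction, as did Runx3 (-1.54, adjusted p = 0.000507) and Bcl2, an inhibitor of apoptosis (-1.03, adjusted p = 0.0333). Runx3 already lay below control at 3 h, without overlap, whereas Ptch1, Hhip and Bcl2 had log2 fold changes of -0.03, 0.06 and 0.01 at that time.

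Gli1 at 24 h had 34.6, 12.9, 9.71 and 11.4 CPM with 1 µM, against 103.0, 129.0, 100.2 and 93.5 CPM in control, a log2 fold change of -2.82 (adjusted p = 0.0344 in edgeR), and the difference from the 3 h effect was -2.24 (adjusted p = 0.197). The genes whose effect was higher at 24 h were Ihh (1.58, adjusted p = 0.000254), Cytl1 (1.17), a cytokine-like protein of cartilage, Pcsk6 (1.04), a proprotein convertase, and Matn3 (0.97), a cartilage matrix protein. Ihh had 97.8, 104.1, 113.4 and 102.4 CPM with 1 µM at 24 h, against 28.3, 46.1, 37.4 and 36.1 CPM in 24 h controls, while at 3 h its groups overlapped. Mbnl3 averaged 18.4 ± 3.19 CPM with 1 µM and 15.6 ± 1.13 CPM in control at 24 h, a log2 fold change of 0.22 (adjusted p = 0.839). Of the 9 genes called for the effect of time, 3 were called without the block, 0 within replicates 1 and 2 and 8 within replicates 3 and 4. Leaving out number 2 or 3 left 5 genes called, and leaving out number 4 left 4. In all, 16 of 15577 genes were called for 1 µM at 24 h (0.103%).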

How the data were processed

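Poly-A RNA of cultured limb buds was sequenced in 24 libraries, of which 8 (4 with 1 µM BPDP and 4 with DMSO, 3 h) form the main comparison. Groups and replicate numbers come from the sample labels, which do not say whether libraries keep strand, and reads from overlapping antisense genes may be mixed. Per the submitters' processing notes, the build was mm10 and the tools were STAR 2.5, HTSeq 0.6.1, CASAVA 1.8 and a DESeq2 whose version is given as 2. The authors deposited raw read counts per gene and library in 5 tables without normalization, joined here (25844 genes). The authors' log2 fold change and the authors' p-value per gene are quoted only as such. A further 50 deposited columns of per-sample values were not used.

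Counts were tested with edgeR 4.0.16 in R 4.3.3 (quasi-likelihood, robust, TMM scaling, filterByExpr with a minimum count of 10 and total of 15), with replicate number as a block and a threshold of 0.05 on the Benjamini-Hochberg adjusted p. Yam1 was left out. The script was tested on simulated data. CPM uses TMM-scaled library sizes over the 24 libraries. The SE printed is the one implied by the quasi-likelihood test. It reflects variation between libraries within the block model as well as depth. The numbers were treated as pairs, an assumption that the labels do not state. Residuals of same-numbered libraries correlated at 0.307, 0.354, 0.27 and 0.115, over a bound of 0.1. For number 4 another control correlated more (0.262), and for number 3 another control came near (0.248). No libraries of a group were near copies (chi-square per degree of freedom at least 9.63). GC content came from GENCODE vM21 by gene identifier, for 15366 of 15445 tested genes (99.49%).

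The comparison, its genes and lists were chosen with earlier results of these data known. Genes were named as the called genes plus those of lowest p, up to 10 in each direction, with a mean of at least 50 counts and 1 direction at all 4 numbers, without predicted genes. Hedgehog genes and up to 2 of lowest p per other list could also be named, and the genes called between doses and times, Meg3 and Rian were named after their values were seen. 1 gene that was tested and enters the counts over all genes is not reported here or counted in the lists, and its place was not refilled. Alternatives were no block, DESeq2 1.42.0, RLE scaling, no filter, Yam1 kept, all 24 libraries, replicate pairs, left-out libraries and a term for low Xist (under 5 CPM).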

Additional observations from a re-analysis of the deposited data

Results flagged for a closer look

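In groups of 4 libraries, Dixon's test at the 95% level looks for a highest or lowest library that stands apart, and chance marks about 5% of groups. It marked 9 of the 102 groups tested. Yam1 stood apart in 1 µM replicate 3, at 5.356% of all counts, and in control replicate 4, at 4.461%. Of the genes named above, control replicate 1 was high in Mbnl3 (20.68 CPM), Foxn3 (42.59 CPM) and Runx3 (39.31 CPM), and control replicate 2 was high in Gadd45g (23.59 CPM). In the 1 µM group, replicate 1 was high in Foxc2 (18.93 CPM), replicate 2 in Dhh (1.673 CPM) and replicate 4 in Gli3 (272.6 CPM). Without replicate 1 the log2 fold change of Runx3 remained negative and that of Mbnl3 was 0.62.

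Effects that differed between times or doses by a direct test were marked as well. The effect of 1 µM at 24 h minus that at 3 h was -1.54 for Runx3, -1.54 for Ptch1, -1.63 for Hhip and 1.58 for Ihh on the log2 scale. Dhrs3 was lower with 10 µM than with 1 µM at 3 h, at -0.717.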

How the results depend on the processing

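For 1 µM against control at 3 h, where 2 genes were called, 2 also passed with RLE scaling and with Yam1 kept in, both times the same genes. The count was 0 without the block of replicate numbers, 26 with DESeq2, 164 without the filter on low counts, 0 with all 24 libraries in 1 fit, 227 within replicates 1 and 2, 3 within replicates 3 and 4 and 2 with the Xist term, the last 2 sets without Gli1 and Mbnl3. Chosen after seeing the data, removing length and GC trends gave 8, and leaving out both libraries high in Yam1, without the block, gave 0. Leaving out replicates gave 0 to 413, and single libraries in the unblocked fit 0 to 1. For 10 µM against 1 µM, with 2 called, the count was 2 without the block, 5 with DESeq2, 44 without the filter and 74 within replicates 3 and 4, and 0 to 16 with libraries left out. For the effect of time, with 9 called, it was 3 without the block, 21 with DESeq2, 18 without the filter, 1 within replicates 1 and 2 and 5 with the Xist term, and 2 to 11 with libraries left out. The cause of these shifts was not tested. Gli1 and Mbnl3 were called in none of the fits without the block that were run. Gli1 was negative and Mbnl3 positive under all 23 alternatives, and they were called in 8 and 7 of them. These fits reuse libraries of the main comparison, and named genes had to have 1 direction at all 4 numbers. The constant sign is therefore not separate evidence, and uncalled genes such as Sox4 and Runx3 also kept theirs under all 23. For single genes, 3021 values under alternatives kept their side of the threshold, 120 were newly called, 31 lost a call and 0 changed the sign of a called value. Depth limits genes of few counts, such as Shh.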
